A study of Mus musculus with 7 samples.

Results

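Sphkap and 8 A-kinase anchoring protein genes, Akap1, Akap5, Akap6, Akap7, Akap8, Akap9, Akap11 and Akap12, were followed in mouse whole neocortex, 9 of the 19936 genes that had a probe set of their own on the arrays. They were taken by gene name, with the brightest probe set by mean over all arrays standing for each gene, and the set was chosen by the CKO and WT signals of Sphkap, which was lower in CKO. Those values are given below as a description with no test. Each of 7 samples, 4 CKO and 3 wild type (WT), gave total RNA for 1 Affymetrix array in a single colour, read as log2 signal. The genotype label of the CKO samples was COUP-TFI_Nex-Cre, and samples of both groups were of strain C57BL/6. Nr2f1 encodes COUP-TFI, a nuclear receptor without a known natural ligand that sets the identity of neocortical areas. Nex-Cre is driven by the Neurod6 locus, which is active in postmitotic glutamatergic neurons and not in interneurons, glia or vessels. The labels used here give no age and do not tell whether arrays stand for different mice, so the p-values cover only the spread among these samples, part of which may be technical. In whole tissue, fewer cells of a type and less RNA per cell cannot be told apart.

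A-kinase anchoring proteins place protein kinase A (PKA), the kinase switched on by cyclic AMP, beside its targets. PKA is built of catalytic subunits held inactive by regulatory subunits, and an anchor grips the docking domain of the paired regulatory subunits with a short amphipathic helix. The anchors differ little in that task and greatly in where they sit, at synapses, mitochondria, the nuclear envelope, chromatin, centrosomes or the cell membrane. In neurons of the cortex, anchored PKA sets the phosphorylation of glutamate receptors, ion channels and transcription factors of the CREB family. SPHKAP was found as a partner of sphingosine kinase and is unusual among anchors in its preference for the type I regulatory subunits.

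Arrays carry the name of their group and the sample number from the labels, and all 7 had an RNA integrity number of 10. The 7 neocortical excitatory neuron markers, Neurod6, Neurod2, Tbr1, Emx1, Slc17a7, Slc17a6 and Fezf2, had mean log2 signals between 10.46 and 13.13, each above at least 80.8% of probe sets. Nr2f1 was 10.63, 10.79, 10.60 and 10.70 on CKO 1, CKO 4, CKO 34 and CKO 43, against 11.08, 11.16 and 10.88 on WT 6, WT 27 and WT 38, without overlap between the groups. The position of this probe set relative to the deletion was not determined. CKO 43 stood apart by Xist, the transcript of the inactive X chromosome, at 13.08, where the remaining CKO arrays had 6.31 to 6.39 and WT arrays 6.22 to 6.26. Its Y-linked genes averaged 5.87, where the remaining CKO arrays had 10.11 to 10.22 and WT arrays 9.83 to 10.23. The array titles fell into 3 sets by their leading digits. Set 1 held CKO 1 and CKO 4, set 2 held CKO 34, CKO 43, WT 27 and WT 38, and set 3 held WT 6 alone, so set 2 was the one set with both groups. Of 16144 genes tested with limma, 4 passed an adjusted p of 0.05 (0.0248%). None of the 9 genes was among them. Without adjustment, p was under 0.05 for 6.79% of all genes (2.61% lower and 4.17% higher in CKO), and for Sphkap alone of the 9, from which nothing is read.

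Sphkap was lower in every CKO array than in any WT array. Its log2 signal (probe set 10356154) was 9.34, 8.88, 8.93 and 8.71 on CKO 1, CKO 4, CKO 34 and CKO 43, against 9.76, 9.91 and 9.76 on WT 6, WT 27 and WT 38. CKO 1 was the highest CKO array and CKO 43 the lowest, and the gap between the groups, from CKO 1 to WT 38, was 0.42. The means were 8.96 ± 0.267 (SD, n = 4) for CKO, against 9.81 ± 0.086 (SD, n = 3) for WT. The difference, CKO minus WT, was -0.85 (limma SE 0.131), or 0.555 of the WT signal, and it was the fifth lowest of all 16144 genes (rank 5). These values were the ground for choosing the set and carry no test. Of the 9 genes, 1 was lower without overlap between the groups, beside 2.99% of all genes tested, and nothing is read from that count.

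The size of the Sphkap difference depended on which CKO arrays were counted. CKO 1 lay 0.50 above the mean of the other 3 CKO arrays, which averaged 8.84 ± 0.115 (SD, n = 3), and -0.47 from the WT mean, at 0.720 of the WT signal. CKO 43 was at 0.465 of the WT signal. The SD within groups, 0.214, was larger than that of 97.9% of genes, while the median over all genes was 0.074. Without CKO 1 the difference was -0.97, and without CKO 43, the array with high Xist, it was -0.76. Within title set 2 alone, with 2 arrays a group, it was -1.02.

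**Figure D1:**
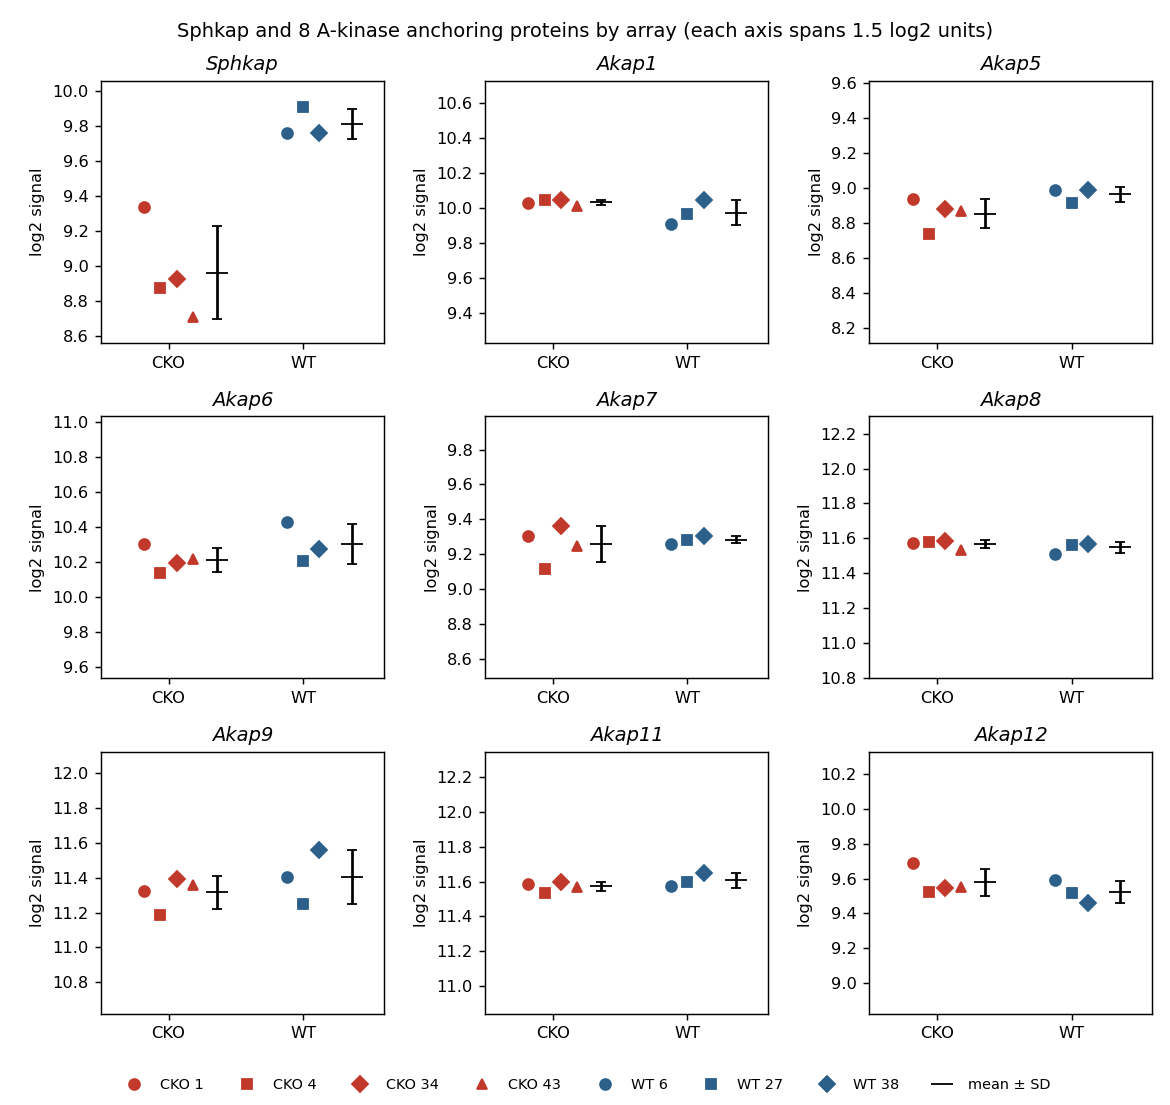
Log2 signal (vertical axis) of Sphkap and the 8 anchoring protein genes on each array, CKO left and WT right, with the group mean ± SD beside the points (n = 4 CKO, n = 3 WT). Every axis spans 1.5 log2 units, so heights can be compared between panels but levels cannot, since each gene has its own probe set. Sphkap is the 1 panel in which the groups do not overlap.

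RefSeq promoter windows (GRCm38.p6, 300 bases, most of them before a gene's start) were matched by symbol for 8 of the 9 genes, in 12 windows; Akap12 had no match. COUP-TFs are known to bind pairs of the nuclear receptor half-site, so the windows were searched on both strands for AGGTCA and GGGTCA, and for TGACG, the core of the cyclic AMP response element that CREB binds. AGGTCA occurs in 16.3% of all 32851 windows, GGGTCA in 13.7% and TGACG in 20.8%. The windows of Sphkap, the gene that was lower, and of Akap6 and Akap11, the members that hold AGGTCA, are shown 5′ to 3′ on the strand of the gene (minus for Sphkap and Akap11, plus for Akap6), with matches in capitals (as the reverse complement, CGTCA, where TGACG lies on the opposite strand).
Sphkap (chr1:83408151-83408450): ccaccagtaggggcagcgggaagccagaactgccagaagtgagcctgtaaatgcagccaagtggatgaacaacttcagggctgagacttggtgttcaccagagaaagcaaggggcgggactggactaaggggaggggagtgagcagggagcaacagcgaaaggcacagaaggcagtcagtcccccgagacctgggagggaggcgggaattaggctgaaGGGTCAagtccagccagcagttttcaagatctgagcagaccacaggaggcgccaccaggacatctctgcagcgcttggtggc
Akap6 (chr12:52699133-52699432): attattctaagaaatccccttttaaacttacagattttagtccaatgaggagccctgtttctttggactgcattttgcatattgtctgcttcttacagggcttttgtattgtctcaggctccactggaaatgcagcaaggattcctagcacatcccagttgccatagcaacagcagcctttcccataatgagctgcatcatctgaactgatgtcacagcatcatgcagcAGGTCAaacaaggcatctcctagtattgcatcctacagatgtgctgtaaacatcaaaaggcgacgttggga
Akap11 (chr14:78536811-78537110): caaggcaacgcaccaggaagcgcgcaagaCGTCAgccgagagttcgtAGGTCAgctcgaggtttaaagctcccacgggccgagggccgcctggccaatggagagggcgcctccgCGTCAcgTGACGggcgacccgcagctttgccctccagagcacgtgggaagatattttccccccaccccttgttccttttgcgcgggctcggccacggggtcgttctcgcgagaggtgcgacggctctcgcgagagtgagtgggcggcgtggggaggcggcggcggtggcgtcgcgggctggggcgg
Sphkap held GGGTCA once, at base 219 of the window, and neither of the other motifs. Akap6 held AGGTCA at base 230. Akap11 held AGGTCA at base 48 and TGACG 3 times, the first at base 30, and none of these matches overlapped. Akap9 also held GGGTCA once, on the opposite strand, and the windows of Akap1, Akap5, Akap7 and Akap8 and a further window of Akap11 held none of the 3. A match describes letters in this window and shows no binding.

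The 8 anchors other than Sphkap had overlapping groups, and none passed the test over all genes (limma adjusted p from 0.727 to 0.930). Of these, 0 had an unadjusted p under 0.05, beside 6.79% of all genes. A further fit took the mean of 5 striatal markers (Isl1, Six3, Ebf1, Drd2 and Penk) as a covariate. That mean was 8.347 to 9.079 in CKO and 8.028 to 8.346 in WT, without overlap. The covariate and genotype therefore cannot be fully told apart in that fit. With it none passed either, while 3 of the 8 had an unadjusted p under 0.05, beside 11.1% of all genes in that fit. These were Akap5 (-0.23), Akap7 (-0.17) and Akap9 (-0.29), each over 1.5 times as far from 0 as without the covariate. Akap6 (-0.18) and Akap11 (-0.08) also lay over 1.5 times as far from 0, with unadjusted p above 0.05. Akap12 moved the other way, nearer to 0, at 0.02 with the covariate and 0.05 without it. Akap1 also lay slightly nearer to 0, at 0.054 with the covariate and 0.058 without it. Akap8 was 0.028 with the covariate and 0.022 without it. Without the covariate the differences of the 8 ran from -0.11 to 0.06, with 5 negative and 3 positive and a median of -0.03, against 0.01 over all genes tested, of which 41.1% were negative. No anchor differed without overlap, beside 8.38% of all genes (5.39% higher in CKO). The widest of their 95% intervals, that of Akap9, ran from -0.27 to 0.09, and the narrowest, that of Akap8, from -0.06 to 0.10. A difference of the size seen for Sphkap lay outside all 8 intervals. Across the 8, the lowest bound was -0.27 (Akap9) and the highest 0.18 (Akap12). Differences within a gene's own interval were not excluded by a p that missed the threshold.

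Among the anchors of the synapse and the cell membrane, Akap5 had the most negative difference. AKAP5 sits at the postsynaptic membrane and holds PKA, protein kinase C and the phosphatase calcineurin beside glutamate receptors. Its log2 signal was 8.94, 8.73, 8.88 and 8.87 on CKO 1, CKO 4, CKO 34 and CKO 43, against 8.99, 8.91 and 8.99 on WT 6, WT 27 and WT 38. Only CKO 1 reached into the WT range, by 0.02. The difference was -0.11 (SE 0.053, adjusted p 0.727 with limma), with a 95% interval from -0.23 to 0.01. Akap7, whose short and long forms tether PKA to membranes and to calcium channels, was 9.31, 9.12, 9.36 and 9.25 on the CKO arrays in the same order, against 9.26, 9.28 and 9.31 on the WT arrays. Its CKO arrays lay on both sides of the WT arrays, and the difference was -0.03 (SE 0.059, adjusted p 0.930 with limma). Akap12, the scaffold gravin, which binds adrenergic receptors at the cell membrane and is also made by vascular and meningeal cells, was 9.69, 9.52, 9.55 and 9.55 on the CKO arrays, against 9.59, 9.52 and 9.46 on the WT arrays. CKO 1 was the highest array and WT 38 the lowest, and the difference was 0.05 (SE 0.053, adjusted p 0.826 with limma). The mean of the 11 endothelial and mural markers, 9 of them higher in CKO and 2 lower, was highest and lowest on the same arrays. Relative to all arrays, it was between -0.05 and 0.12 in CKO and between -0.07 and 0.01 in WT. The means of the 12 radial glia and astrocyte markers and the 8 microglia markers were likewise highest on CKO 1 and lowest on WT 38. The mean of the 8 meningeal and choroid plexus markers tested was also highest on CKO 1. It was lowest on WT 6 (-0.19), with WT 38 at 0.0043. The part of any of these cell types in the Akap12 values was not tested.

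Anchors of the nucleus, mitochondria, centrosome and vesicles gave no call and overlapped between the groups. Akap6, the anchor of the nuclear envelope, was 10.30, 10.14, 10.19 and 10.21 on CKO 1, CKO 4, CKO 34 and CKO 43, against 10.43, 10.20 and 10.27 on WT 6, WT 27 and WT 38, a difference of -0.09 (SE 0.062, adjusted p 0.762 with limma). WT 6 was the highest array, and WT 27 and WT 38 lay within the CKO range. Without WT 6 the difference was -0.03, and without WT 27 it was -0.14. Akap9, the large anchor of the centrosome and Golgi whose short form binds NMDA receptors, was 11.33, 11.18, 11.39 and 11.36 on the CKO arrays, against 11.40, 11.25 and 11.56 on the WT arrays. WT 38 was the highest array, WT 6 lay just above the CKO range and WT 27 within it, and the difference was -0.09 (SE 0.079, adjusted p 0.807 with limma). It was -0.01 without WT 38, -0.04 without CKO 4 and -0.16 without WT 27. Akap1, which tethers PKA to the outer mitochondrial membrane, kept within 10.01 and 10.05 in CKO, against 9.91 to 10.05 in WT. Akap8, a nuclear anchor tied to condensing chromatin, kept within 11.54 and 11.58 in CKO, against 11.51 to 11.57 in WT, and its SD within groups (0.026) was smaller than that of all but 4.22% of genes. For both genes the WT range reached the lower value, and the differences were 0.06 (SE 0.043, adjusted p 0.779 with limma) for Akap1 and 0.02 (SE 0.036, adjusted p 0.893) for Akap8.

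Akap11, an anchor that also holds the kinase GSK3 and a phosphatase on vesicles, was the 1 member with several probe sets. The brightest was 11.58, 11.54, 11.60 and 11.57 on CKO 1, CKO 4, CKO 34 and CKO 43, against 11.57, 11.60 and 11.65 on WT 6, WT 27 and WT 38, a difference of -0.03 (SE 0.038, adjusted p 0.835 with limma). CKO 4 was the lowest array and WT 38 the highest, with the others between them. The other 2 probe sets differed by -0.04 and -0.01. All 3 were lowest on CKO 4 and overlapped between the groups.

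The anchors shared extreme arrays across the genotypes. CKO 4 was the lowest of the 7 arrays for 5 of the 8, Akap5, Akap6, Akap7, Akap9 and Akap11, and it was the lowest for 10.4% of all genes. WT 38 was the highest for 4 of the 8, Akap1, Akap5, Akap9 and Akap11, and for 15.7% of all genes. Sphkap went with neither, being lowest on CKO 43 and highest on WT 27. Within title set 2 the differences of the 8 anchors ran from -0.08 (Akap5) to 0.06 (Akap12), and those of Akap7 (0.01) and Akap8 (-0.01) had the opposite sign to the values over all arrays.

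**Figure D2:**
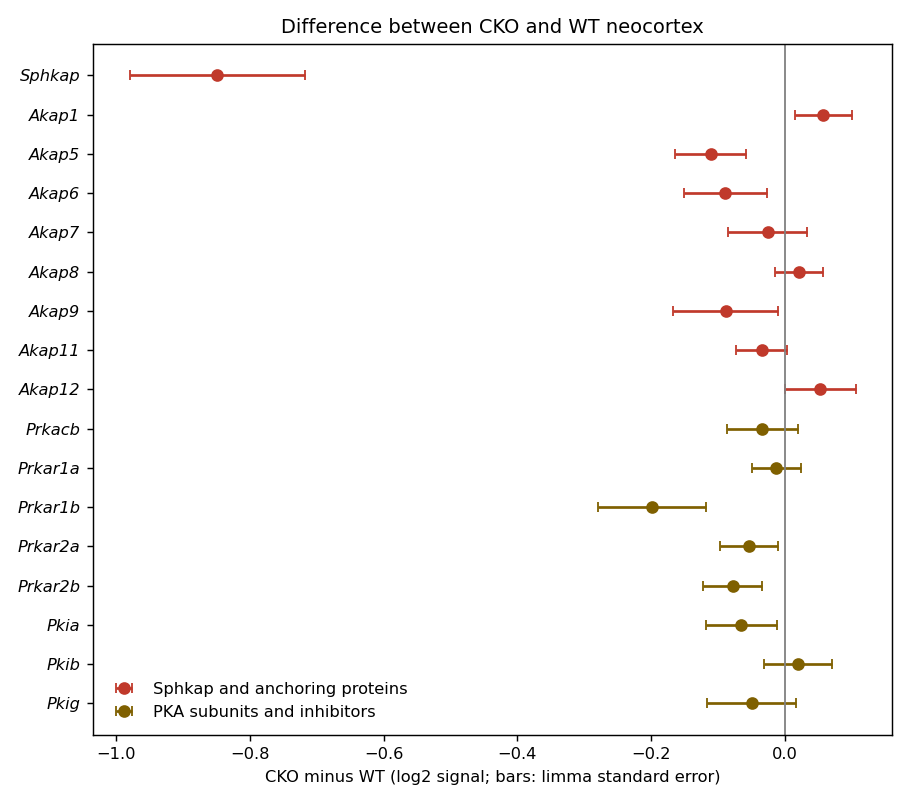
Difference in log2 signal, CKO minus WT (horizontal axis), for Sphkap, the 8 anchoring proteins and 8 PKA subunits and inhibitors; bars are limma's standard errors over 4 CKO and 3 WT arrays. Sphkap lies at -0.85 and the 16 other genes between -0.20 and 0.06.

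The genes of the kinase that the anchors hold gave no call. Of 8 PKA subunit and inhibitor genes tested, 7 had a negative difference, the median was -0.05 against 0.01 over all genes, and limma called none (1 had an unadjusted p under 0.05, beside 6.79% of all genes). That gene was Prkar1b, the brain-enriched type I regulatory subunit, at 11.72, 11.54, 11.76 and 11.50 on CKO 1, CKO 4, CKO 34 and CKO 43, against 11.94, 11.71 and 11.84 on WT 6, WT 27 and WT 38. CKO 4 and CKO 43 lay below the WT arrays while CKO 1 and CKO 34 reached past WT 27, and the difference was -0.20 (SE 0.081, adjusted p 0.726 with limma). The other type I subunit gene, Prkar1a, ran from 12.04 to 12.06 in CKO, against 12.02 to 12.11 in WT, a difference of -0.01 (SE 0.037). The type II subunit genes differed by -0.05 (Prkar2a, SE 0.043) and -0.08 (Prkar2b, SE 0.044), and the catalytic subunit gene Prkacb by -0.03 (SE 0.053). Prkaca was not analysed here.

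Other anchoring proteins and the partners that anchors hold gave no call either. Of 24 further genes with PKA anchoring described for their products, 19 were tested, 10 positive and 9 negative, with a median of 0.01. None passed with limma and 1 had an unadjusted p under 0.05, beside 6.79% of all genes. That gene was Ezr, the membrane to actin linker ezrin, at 0.12 (SE 0.053, adjusted p 0.726 with limma). Gskip, which ties PKA to GSK3, differed by -0.15 (SE 0.078), and Cmya5, a muscle anchor, by 0.11 (SE 0.058). Arfgef2, named after its values were seen, had 5 probe sets, all with a positive difference. The brightest differed by 0.01 and another by 0.04, while the remaining 3 differed by 0.18, 0.18 and 0.15, of which the first and last did not overlap between the groups. Of 28 partner genes, 23 were tested, 10 positive and 13 negative, with a median of -0.01. None passed with limma, and 1 had an unadjusted p under 0.05, beside 6.79% of all genes. Sphk1 and Sphk2, the sphingosine kinases after which SPHKAP is named, differed by 0.07 (SE 0.078) and 0.09 (SE 0.105). Vapa and Vapb, membrane proteins of the endoplasmic reticulum that bind SPHKAP, differed by -0.02 (SE 0.040) and 0.00 (SE 0.039). These 4 partners of SPHKAP were outside the naming rule and are given as its binding partners. The lowest p was that of Kcnb2, a Kv2 potassium channel, at 9.40, 9.22, 9.29 and 9.31 on CKO 1, CKO 4, CKO 34 and CKO 43, against 9.64, 9.50 and 9.40 on WT 6, WT 27 and WT 38. The groups were apart by 0.0019, between CKO 1 and WT 38, and the difference was -0.21 (SE 0.065, adjusted p 0.711 with limma). Kcnb2 was the 1 partner gene of 23 without overlap, beside 8.38% of all genes. The calcineurin subunit genes Ppp3ca (-0.14, SE 0.067) and Ppp3r1 (-0.11, SE 0.055) came next.

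The enzymes that make, break and read cyclic AMP had differences of both signs and no call. Of 16 adenylyl cyclase and G protein genes tested, 8 were positive and 8 negative, and none passed with limma. Without adjustment, 1 had a p under 0.05, beside 6.79% of all genes. Gnal, the stimulatory G protein subunit of striatal and olfactory neurons, was 10.44, 10.58, 10.69 and 10.20 on CKO 1, CKO 4, CKO 34 and CKO 43, against 9.95, 10.24 and 9.97 on WT 6, WT 27 and WT 38. CKO 43 lay below WT 27, and the difference was 0.42 (SE 0.118, adjusted p 0.711 with limma). The 10 striatal markers averaged between -0.05 and 0.32 relative to all arrays in CKO, and between -0.29 and -0.14 in WT, with 9 of 10 higher in CKO, and their part in the Gnal value was not tested. Adcyap1r1, the receptor of the peptide PACAP, differed by -0.11 (SE 0.057) and Gnai2 by 0.07 (SE 0.043).

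Of 16 phosphodiesterase genes, 7 were positive and 9 negative with a median of -0.01, and none passed with limma (4 had an unadjusted p under 0.05, beside 6.79% of all genes, and 3 of these were lower in CKO, beside 2.61%). Pde1a, a calmodulin-dependent enzyme, was 8.76, 8.53, 8.60 and 8.57 on CKO 1, CKO 4, CKO 34 and CKO 43, against 9.10, 8.99 and 8.72 on WT 6, WT 27 and WT 38, a difference of -0.32 (SE 0.092, adjusted p 0.711 with limma). CKO 1 lay above WT 38. Pde1c, of the same family, was the 1 phosphodiesterase of 16 without overlap, beside 8.38% of all genes, at 8.62 to 8.76 in CKO, against 8.81 to 8.89 in WT, a difference of -0.16 (SE 0.046, adjusted p 0.711 with limma). In the RefSeq table Pde1c lies on the chromosome of Neurod6, the Nex-Cre locus, with 2 protein-coding genes between them. Any part of this position in the Pde1c values was not tested. Pde7b, a cyclic AMP-specific enzyme, was 8.54 to 8.66 in CKO and 8.04 to 8.60 in WT, a difference of 0.33 (SE 0.116, adjusted p 0.717 with limma). WT 27 alone of the WT arrays lay within the CKO range. Of 11 genes of the CREB family and its coactivators, none passed with limma. An unadjusted p under 0.05 was seen for 1, beside 6.79% of all genes. That gene was Creb5, at 0.18 (SE 0.068, adjusted p 0.723 with limma). Crtc3 and Ep300 each differed by 0.07 (SE 0.043 and 0.056).

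**Figure D3:**
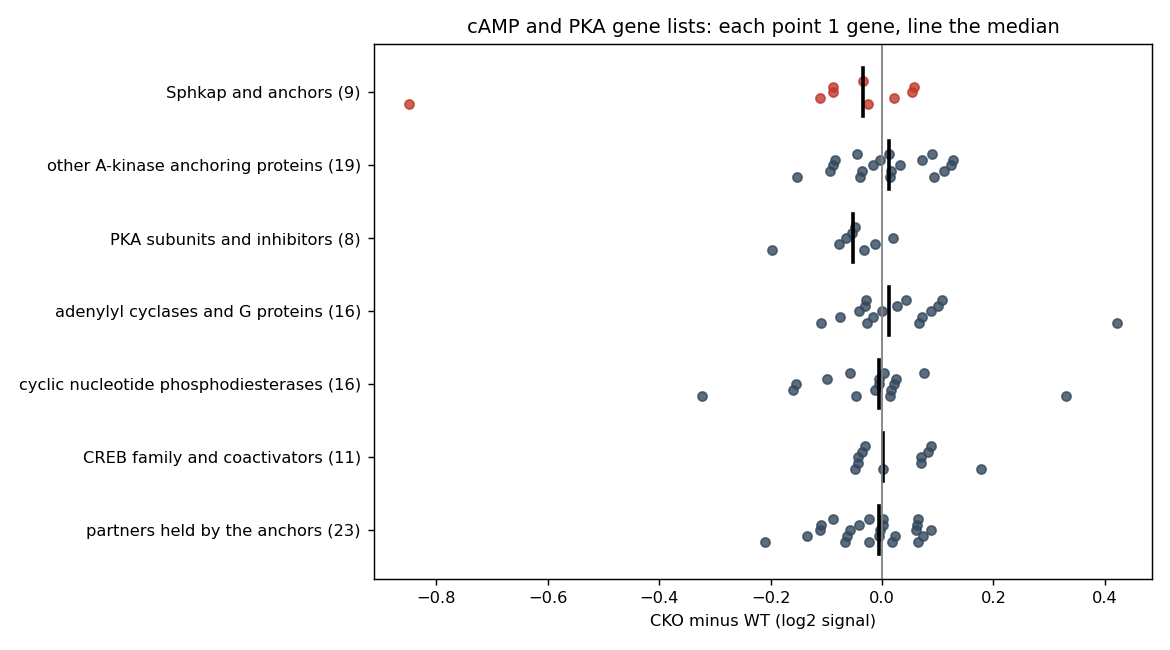
Difference in log2 signal, CKO minus WT (horizontal axis), of every tested gene in Sphkap's set and in 6 lists of the cyclic AMP and PKA pathway, with the number of genes tested in brackets; each point is 1 gene and the vertical bar is the list's median. The medians lie between -0.05 and 0.01, and Sphkap, at -0.85, is the lowest point.

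Sphkap had near companions in pattern among other genes. Over the 7 arrays, 56 of 16143 genes had a Pearson r above 0.9 with Sphkap and 13 had one below -0.9. These arrays are the same ones in which Sphkap parts by genotype, so the gap between the groups enters every r, which is given as a description with no test. The closest was Tafa1, a secreted neurokine-like protein, with r of 0.99. Its log2 signal was 9.28, 8.06, 8.25 and 7.94 on CKO 1, CKO 4, CKO 34 and CKO 43, against 9.81, 9.85 and 9.74 on WT 6, WT 27 and WT 38, and the arrays stood in the same order as for Sphkap. Next came Adamts3, a secreted metalloprotease, and Asic2, an acid-sensing ion channel (r of 0.97 each). Tafa2, a relative of Tafa1, and Sprn, a prion-like membrane protein, had r of 0.96 each. All 5 had CKO 1 as their highest CKO array. When each array was taken relative to its group mean, r was 0.96 for Tafa1, 0.94 for Sprn, 0.83 for Asic2, 0.82 for Adamts3 and 0.80 for Tafa2. By that measure they ranked 23, 54, 401, 465 and 560 among all genes, and the highest were Fgd1 (0.991), Vwf (0.990) and Zcchc12 (0.982), named after their values were seen, whose differences were positive (0.08, 0.09 and 0.10). The most negative r belonged to Rbl1, a relative of the retinoblastoma protein (-0.99), the adhesion protein gene Igsf11 (-0.96) and Klhl5 (-0.95), which differed by 0.09, 0.05 and 0.13. Among the 8 anchors, r with Sphkap over the 7 arrays was highest for Akap5, at 0.73, which had 0.39 relative to the group means. Relative to the group means the highest was Akap12, at 0.71, which had -0.11 over the 7 arrays.

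**Figure D4:**
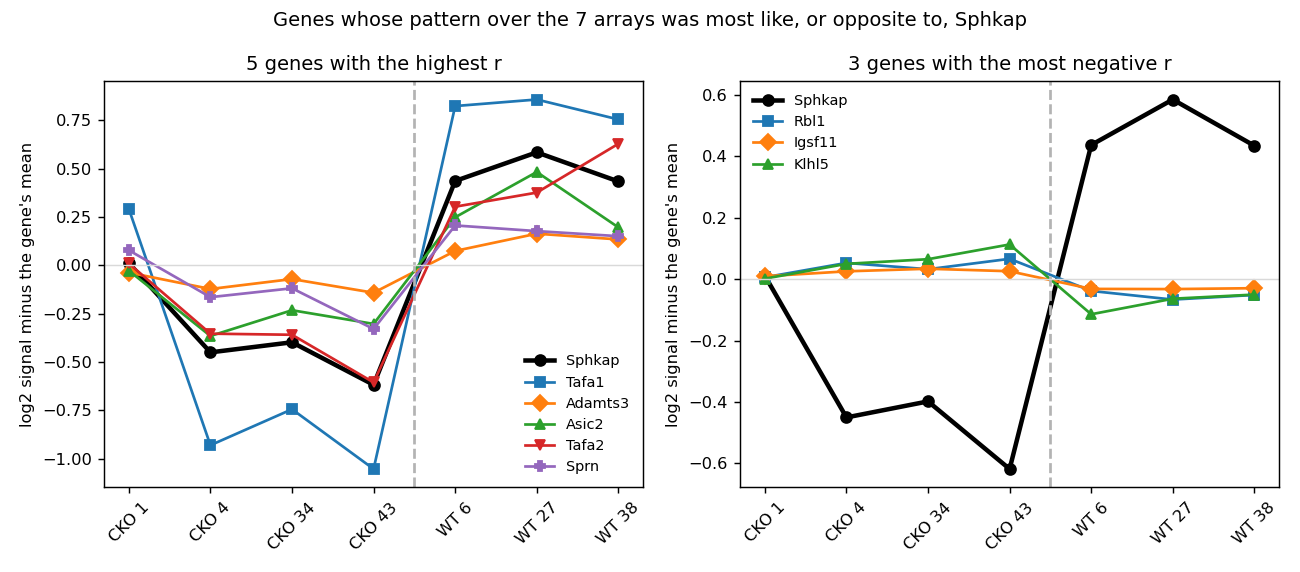
Log2 signal minus each gene's mean over the 7 arrays (vertical axis) by array (horizontal axis, CKO left of the dashed line and WT right), for Sphkap and the 5 genes of highest r (left) and the 3 of most negative r (right). Tafa1 follows the order of Sphkap on all 7 arrays with a wider swing, and CKO 1 is the CKO array nearest to WT in the left panel.

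Markers of the neurons that could carry Sphkap were set beside it. The 9 layer 5 markers averaged between -0.19 and 0.03 relative to all arrays in CKO, and between 0.06 and 0.12 in WT, without overlap between the groups. Of these 9, 4 were lower and 5 higher in CKO, with a median difference of 0.04, and the most negative, named with the next 2 after their values were seen, were the neurofilament genes Nefl (-0.98, SE 0.274) and Nefm (-0.77, SE 0.130). Bcl11b (0.15) and Pcp4 (0.09) lay higher in CKO without overlap, and Nefl and Nefm lower without overlap. These were 4 of 9, beside 8.38% of all genes (5.39% higher and 2.99% lower in CKO). Nothing is read from that count, since the list was chosen with earlier results of these data known. Without Nefl and Nefm the mean of the other 7 overlapped, at -0.01 to 0.05 in CKO and -0.04 to 0.00094 in WT. Leaving out the 2 most negative genes, after their values were seen, was bound to raise the CKO mean relative to WT. It describes the make-up of the layer 5 mean and tests nothing. The mean of the 7 excitatory neuron markers overlapped, at -0.05 to 0.07 in CKO and -0.09 to 0.09 in WT. So did that of the 10 upper-layer markers (-0.09 to 0.08 in CKO and -0.04 to 0.08 in WT). That of the 12 interneuron markers overlapped as well (-0.19 to 0.17 in CKO and -0.10 to 0.01 in WT). Of the 7 excitatory markers, 4 were higher and 3 lower in CKO. Named after their values were seen, Neurod6, the Nex-Cre locus, differed by -0.20 (SE 0.057) and Tbr1 by 0.14 (SE 0.057). Neither overlapped between the groups, 2 of 7 beside 8.38% of all genes. The 12 interneuron markers, 7 higher and 5 lower in CKO, ran from -0.60 (Htr3a) to 0.51 (Dlx2). The mean of the 11 layer 6 and subplate markers also overlapped (-0.05 to 0.02 in CKO and -0.07 to 0.10 in WT). It too averaged genes that moved in opposite directions. Syt6, a synaptotagmin, rose by 0.67 (SE 0.041, adjusted p 0.0022 with limma) and Kcnab1, a potassium channel subunit, fell by 0.58 (SE 0.060, adjusted p 0.035 with limma), 2 of the 4 genes called over all genes. In that list 5 of 11 did not overlap between the groups, 2 higher and 3 lower in CKO. Over all genes 8.38% did not overlap, 5.39% higher and 2.99% lower. The list was chosen with earlier results of these data known, so nothing is read from that count. All 11 markers of dividing cells and all 12 of radial glia and astrocytes were higher in CKO, by sign, beside 9504 of all 16144 genes. Their differences ran from 0.05 to 0.19 and from 0.0027 to 0.26, and none passed with limma. Without adjustment, 6 of the 11 and 2 of the 12 had a p under 0.05 and were higher in CKO, beside 4.17% of all genes. These lists too were chosen with earlier results of these data known. The dividing-cell mean was 0.02 to 0.08 in CKO and -0.16 to -0.0031 in WT, and that of radial glia and astrocytes 0.0032 to 0.09 in CKO and -0.11 to -0.02 in WT. Neither mean overlapped between the groups. The part of any of these cell types in the Sphkap values was not tested. With the mean of 5 striatal markers as a covariate the Sphkap difference was -0.87 (SE 0.215). That covariate did not overlap between the groups, so it and genotype cannot be fully told apart in that fit.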

How the data were processed

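The deposited values were log2 signals; the submitters' processing notes name RMA and Affymetrix Expression Console. Software version and genome build: not given in the sources used here. Values of equal rank differed between the 7 arrays by a median of 0.000811 (at most 0.0256). The platform annotation gave 1 symbol to 21786 of 35468 probe sets, which were used, several to 1621 and none to 12061. For 998 symbols with several probe sets, the brightest was kept. Genes under the 25th percentile of mean log2 signal (6.84) were left out, which kept 16144, including all 9 members.

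CKO was compared with WT over 7 arrays with limma 3.58.1 (lmFit, eBayes) under R 4.3.3, without covariates. Residual degrees of freedom were 5 and prior ones 3.28, and p-values were adjusted over all genes (Benjamini-Hochberg, 0.05). Intervals use limma's standard errors. The script was tested on simulated data. Figures used matplotlib 3.10.9. Members and lists were chosen with earlier results of these data known. Genes named were the members, PKA subunits, up to 3 genes of smallest p per pathway list, and 5 and 3 genes most like and opposite to Sphkap. Alternatives changed the filter, probe set choice, normalization, variance model, weights, title sets, covariates, threshold and arrays. The number of arrays limits precision.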

Additional observations from a re-analysis of the deposited data

Results flagged for a closer look

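Among 39 named genes, the 4 CKO arrays were examined for 1 value far from the rest, a check that chance flags in about 1 of 20 groups, and 3 genes were picked out. Akap8 was 11.54 on CKO 43 and 11.58 on every other CKO array, with WT at 11.51 to 11.57. Akap12 was 9.69 on CKO 1 and 9.52 to 9.55 on its 3 fellow arrays, with WT at 9.46 to 9.59. Prkar1a was 12.04 on CKO 34 and 12.05 to 12.06 on its 3 fellow arrays, with WT at 12.02 to 12.11.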

How the results depend on the processing

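The Sphkap difference stayed negative under all 20 alternatives, between -1.02 (title set 2 alone, or title set as a fixed block) and -0.76 (without CKO 43). The count of members past an adjusted p of 0.05 was 0 under 20 of 21 alternatives and ran from 0 to 1 when each array was left out. The 1 was Sphkap without CKO 1, a description since the set was chosen for it. The count over all genes, 4, was 1 with array weights or a Y-linked covariate, 0 with a striatal covariate, with title set as a fixed block or within title set 2, and 1 to 6 when each array was left out. In the 6 pathway lists no gene passed under any of 20 alternatives each. With the striatal covariate, which did not overlap between the groups, Akap5, Akap7, Akap9 and Akap11 differed by -0.23, -0.17, -0.29 and -0.08. None of these passed, and the cause was not tested. Akap7 turned positive under 3 of 20 alternatives and Akap8 negative under 2 of 20, and neither was called. No paired analysis was possible because the groups share no replicate numbers.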

Other observations

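CKO 1 was most often the CKO array nearest to WT among genes lower in CKO without overlap, but not among genes higher in CKO. Of 483 genes lower in CKO without overlap, CKO 1 had the highest CKO signal for 180 (37.3%), CKO 34 for 117, CKO 43 for 115 and CKO 4 for 71. Of 870 genes higher in CKO without overlap, CKO 1 had the lowest CKO signal for 87 (10.0%), CKO 34 for 453, CKO 43 for 253 and CKO 4 for 77. Its Nr2f1 signal, 10.63, lay below those of CKO 4 (10.79) and CKO 43 (10.70) and above that of CKO 34 (10.60).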
